A study of Homo sapiens with 24 samples.

Results

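The change of the TGFβ response between 24 h and 48 h was examined in SK-MES1, an established human line of lung squamous cell carcinoma. For each gene, the log2 difference between TGFβ-treated and untreated cells at 24 h was subtracted from the same difference at 48 h, which is the interaction of treatment and time. This value is called the change of the difference here, and it is positive where expression with TGFβ, relative to untreated cells, was higher at 48 h than at 24 h. It used 12 of the 24 RNA-Seq libraries directly, 3 per group. All 17453 genes with enough estimated counts were tested, and 1590 of them (9.11%) had a changed difference, with an adjusted p below 0.01 by limma voom (a linear model with precision weights, p-values adjusted by Benjamini-Hochberg over all genes tested). The groups were untreated cells at 24 h, untreated cells at 48 h, and cells stimulated with 2 ng/ml TGFβ1 for 24 h or 48 h. Cells of all groups were growth factor-depleted for 3 hours beforehand, so that both arms shared the same depletion and time in culture. Per the study, the medium for TGFβ1 stimulation was itself growth factor-depleted, so the depletion did not end after these 3 hours. SK-MES1 is 1 cell line, and the triplicates are replicates of this line rather than of patients.

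TGFβ is a secreted cytokine that binds a pair of serine/threonine kinase receptors, which phosphorylate SMAD2 and SMAD3. These form a complex with SMAD4 and move to the nucleus, where they regulate genes of the extracellular matrix, of cell adhesion and of the cell cycle. In epithelial cells the pathway is known for restraining proliferation and for epithelial-to-mesenchymal transition, in which cells lose junctions and gain mesenchymal proteins. Early targets include genes of feedback inhibitors, while genes that act in matrix deposition are often reached later and in part through other transcription factors.

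The 12 libraries held 46613589 to 65273825 estimated counts (median 54880630). At 24 h replicate 2 stood apart in both arms. The SD of its log2 differences from the other replicates over genes lay between 0.173 and 0.277, against 0.082 to 0.108 for all other pairs of replicates. Counts without both of these libraries are given for some of the results. The library names carry 1 code for the untreated arm and another for the TGFβ arm at 24 and 48 h. At each single time point this code cannot be told apart from TGFβ itself, whereas a constant offset between the arms cancels in the change of the difference. It does not cancel in counts of genes higher or lower with TGFβ at 24 h or at 48 h. The summed TPM (a share of transcripts corrected for length) of 7 epithelial markers was 1739 to 1899 in untreated and 2853 to 3266 in TGFβ-treated cells at 24 h. At 48 h it was 2497 to 2592 in untreated and 2917 to 2959 in TGFβ-treated cells. Of the 7, 1 was higher and 2 were lower with TGFβ at 24 h, and 1 was higher and 4 were lower at 48 h. The higher one was KRT7, described below, so that these sums do not stand for most members. Of 8 squamous markers, KRT5, KRT14, KRT6A and DSG3 were below 1 TPM in all 12 libraries, whereas KRT17, TP63, SOX2 and PKP1 were not. The sum of the 8 was 44.2 to 45.5 TPM in untreated and 96.2 to 102 TPM in TGFβ-treated cells at 24 h, and 62.8 to 64.6 TPM and 131 to 134 TPM at 48 h. Of the 4 tested, 3 were higher and 1 was lower with TGFβ at 24 h, and 2 were higher and 2 lower at 48 h. KRT17, described below, made up much of the sum with TGFβ at 48 h. Of 7 leukocyte markers, 4 were below 1 TPM in all 12 libraries (CD3E, LYZ and TYROBP among them) and PTPRC, CD14 and CD68 were not, with a sum of 10 to 18.5 TPM. Of 6 endothelial markers, 5 (CDH5, VWF, KDR, TEK and CLDN5) were below 1 TPM and PECAM1 was not, with a sum of 1.55 to 4.9 TPM. The level of a gene in such bulk RNA cannot distinguish fewer cells of a kind from less RNA per cell. All differences are relative to the bulk of genes (TMM scaling). Against 4 reference genes (GUSB, HPRT1 and GAPDH among them) as library size the median difference of all genes was 0.335 at 24 h and 0.336 at 48 h, so that reversals, which rest on the zero point, fell from 137 to 59. Of the reversed genes named here, PIF1, SLC2A12, NOTCH3, INSIG1, TNFRSF9, CDCA7 and MCM2 still met the definition of a reversal on that scale and the others did not. By TMM the 3 named genes had differences of -0.16 (GUSB) to -0.38 (GAPDH) at 24 h and of -0.14 (GUSB) to -0.56 (HPRT1) at 48 h.

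The difference between the arms grew for 913 genes, faded for 500 and reversed its sign for 137 (0.785% of those tested). A further 40 genes (0.229%) had a changed difference but no difference at either time point that passed the threshold. Growth means that the difference was present at both times and larger at 48 h (392 genes, 2.25% of those tested, widened) or passed the threshold at 48 h and not at 24 h (521 genes, 2.99%, appeared). Fading means that it was smaller at 48 h (162 genes, 0.928%, narrowed) or passed at 24 h and not at 48 h (338 genes, 1.94%, lost). Growth, fading and reversal rest on the differences at each time, in which a constant offset between the arms does not cancel. Such an offset could move a gene from one class to another. Of the growing differences, 373 were toward higher and 540 toward lower expression with TGFβ. Of the fading ones, 332 were of genes higher and 168 of genes lower with TGFβ at 24 h. In all, 611 genes (3.5% of those tested) had a positive and 979 (5.61%) a negative change of the difference. These shares are the background for the counts of called list members below. The median change over all genes tested was 0.00 on the log2 scale, and 245 of the called genes changed by at least 2-fold. For comparison, 5112 genes (29.3%) differed between the arms at 24 h and 5686 (32.6%) at 48 h.

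**Figure D1:**
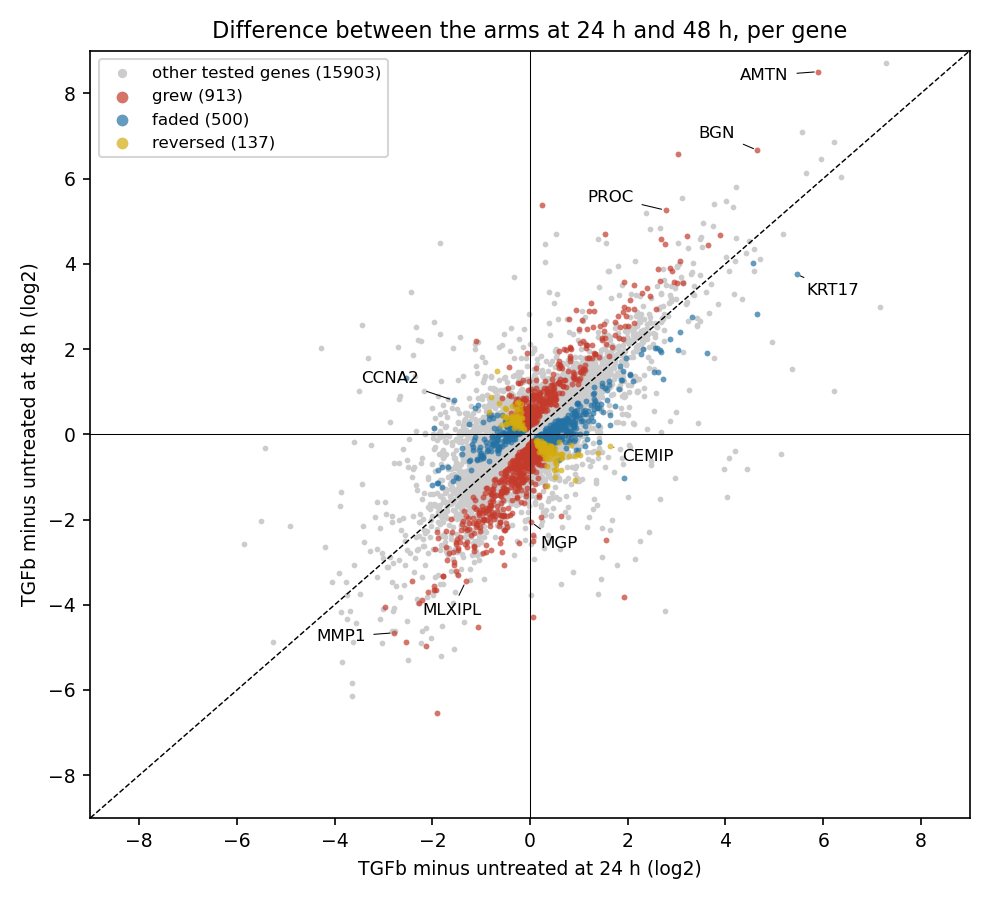
Log2 difference between TGFβ-treated and untreated cells at 24 h (horizontal axis) and at 48 h (vertical axis) for each of the 17453 tested genes, with called genes coloured by class and the others in grey. The dashed line marks equal differences, the 913 genes that grew lie on its side away from a zero difference at 48 h, the 500 that faded lie on the side toward zero, and the 137 that reversed have opposite signs on the axes.

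A change of the difference can come from either arm. Among the 979 negative changes, 373 were genes that rose from 24 h to 48 h in untreated cells with no called change in TGFβ-treated cells, and 281 were genes that fell only in TGFβ-treated cells. In 84 genes the arms moved in opposite directions, and 218 moved the same way in both arms but unequally. Among the 611 positive changes, 219 moved only in untreated cells, 184 only in TGFβ-treated cells, 28 in opposite directions and 155 the same way in both. Changes of the difference thus came from untreated cells, kept in culture without TGFβ, as well as from treated ones. Within the arms, 4952 genes (28.4%) changed from 24 h to 48 h in untreated and 4504 (25.8%) in TGFβ-treated cells.

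**Figure D2:**
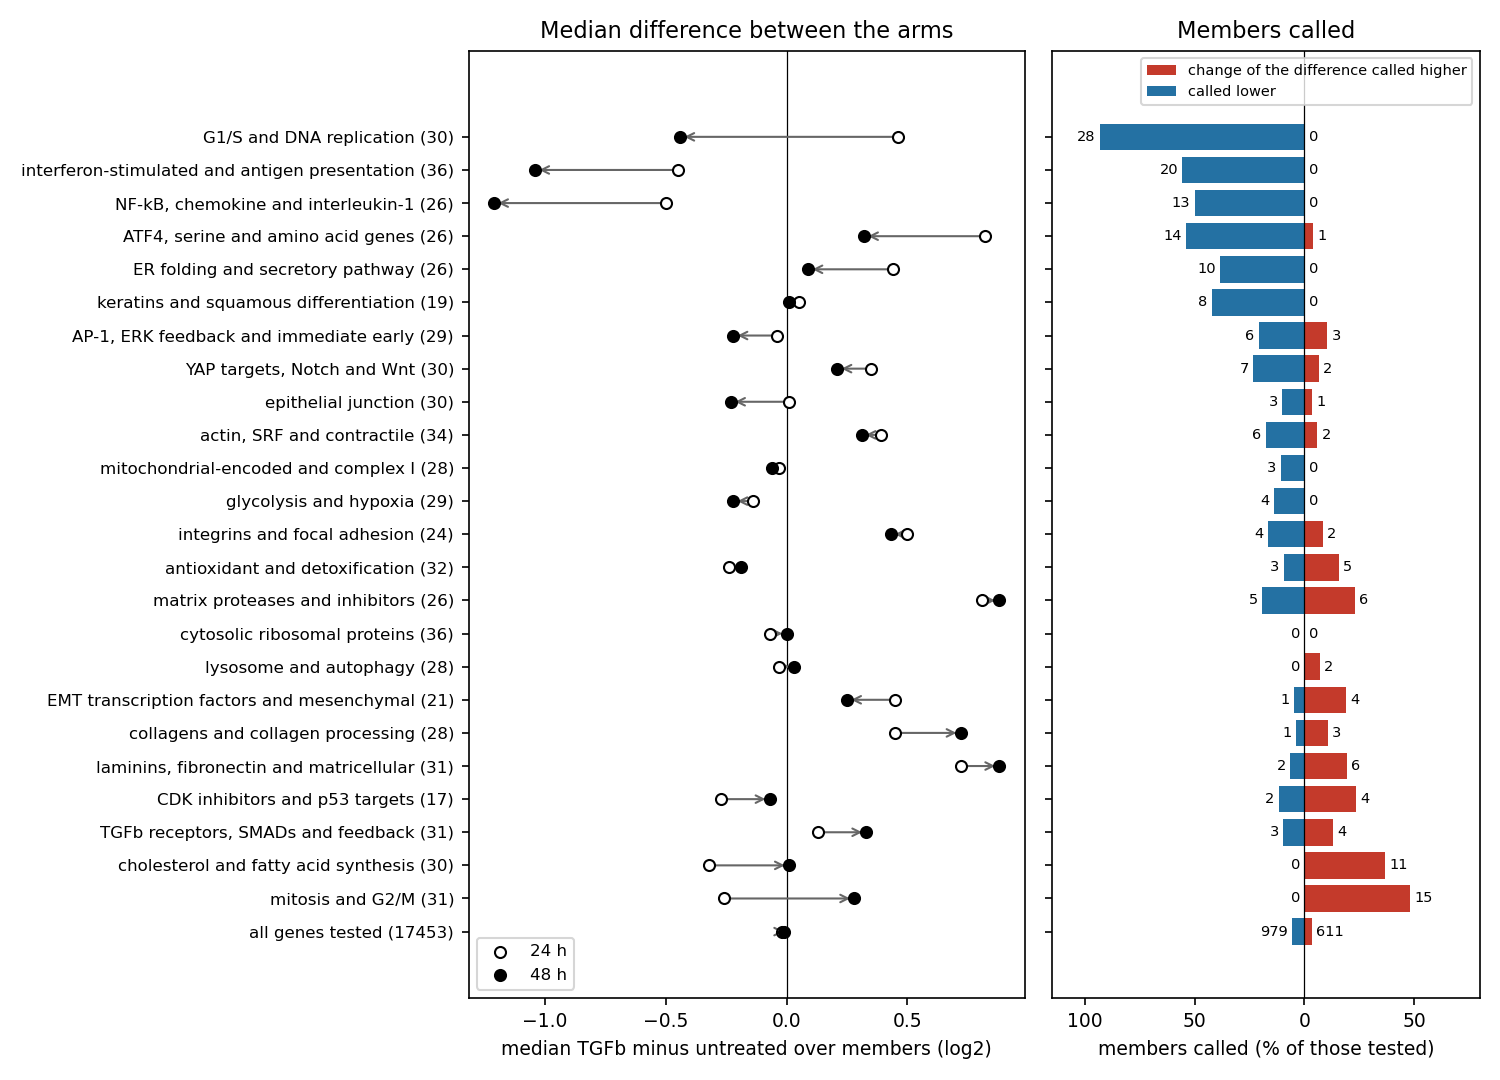
Left, median log2 difference between TGFβ-treated and untreated cells over the tested members of each of 24 gene lists (number in parentheses) at 24 h (open) and 48 h (filled). Right, the share of members whose change of the difference was called higher (red) or lower (blue), with their number; 28 of 30 G1/S genes were called lower and 15 of 31 mitosis genes higher, against 5.61% and 3.5% of all genes.

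Genes of the extracellular matrix and of secreted proteases were among the largest late increases. The summed TPM of 8 fibroblast markers, several of them matrix genes, was 211 to 318 without TGFβ. With it the sum was between 1256 and 1760 at 24 h and between 2117 and 2415 at 48 h. Most of the sum with TGFβ was COL1A1, described below, while COL1A2 stayed below 1 TPM. Of the 8 markers, 3 were called higher in the change of the difference and 2, DCN and LUM, lower, with a median change of 0.18. The part of this sum in these results was not tested. AMTN encodes amelotin, a secreted protein of mineralizing epithelia. Its expression was 1.22, 1.04 and 0.718 TPM in the 3 untreated libraries at 24 h and 0.49, 0.442 and 0.562 TPM at 48 h. With TGFβ the libraries had 55.6, 57.6 and 63.4 TPM at 24 h and 198, 190.0 and 191 TPM at 48 h. The arms were far apart at both times, and the log2 difference grew from 5.90 to 8.51, a change of 2.61 (SE 0.29, adjusted p = 1.8e-06). PROC, the gene of the anticoagulant protease precursor protein C, had 42.7, 34 and 45.8 TPM and then 60, 61.5 and 59.6 TPM with TGFβ. In untreated cells it went from 5.79, 5.58 and 5.34 TPM to 1.08, 2.25 and 2.1 TPM, so that both arms moved apart and the change of the difference was 2.48 (SE 0.25, adjusted p = 4.6e-07). BGN, which encodes the matrix proteoglycan biglycan, stayed at or below 1.12 TPM in every untreated library, while TGFβ-treated cells rose from 15, 10.5 and 14.6 TPM to 113, 113 and 94.3 TPM. Its change of the difference was 2.01 (SE 0.3, adjusted p = 5.7e-05).

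Both HTRA1 and PRSS2 rose late with TGFβ over flat untreated cells. HTRA1, a secreted serine protease, had 82.4, 87.1 and 84 TPM at 24 h and 90.3, 88.9 and 89.6 TPM at 48 h without TGFβ. With TGFβ it went from 161, 175 and 176 TPM to 497, 497 and 493 TPM, and the change of the difference was 1.46 (SE 0.061, adjusted p = 4e-12). PRSS2, an anionic trypsinogen, rose with TGFβ from 322, 318 and 313 TPM to 1052, 1055 and 1043 TPM, while untreated cells stayed between 41.8 and 51.6 TPM, a change of 1.70 (SE 0.1, adjusted p = 5.9e-10). PRSS2 belongs to a family of near-identical trypsinogen genes, between which reads may have been divided, so its level is less certain than the others. Of 26 tested matrix proteases and their inhibitors, 6 were called higher and 5 lower, against 3.5% and 5.61% of all genes. MMP2, a gelatinase, was among the members called higher, with 1277, 1411 and 1262 TPM at 24 h and 2285, 2263 and 2313 TPM at 48 h with TGFβ and a change of 0.46. MMP1, the interstitial collagenase, went the other way, since untreated cells rose from 1.81, 1.96 and 2.26 TPM to 8.02, 9.57 and 9.33 TPM while TGFβ-treated cells stayed at or below 0.449 TPM. Its change of the difference was -1.88 (SE 0.37, adjusted p = 0.0013), and without replicate 2 of both arms at 24 h it did not pass (-1.69, adjusted p = 0.012).

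Of 28 collagen genes, 3 were called higher and 1 lower, against 3.5% and 5.61% of all genes. Their median change was 0.14 beside 0.00 for all genes. The 3 became 2 in a fit of the 12 libraries alone. They also became 2 without TGFβ replicate 2 or 3 at 48 h, untreated replicate 1 or 3 at 24 h, or any untreated library at 48 h. The 1 became 2 without TGFβ replicate 1 at 24 h. COL1A1, the α1 chain of type I collagen, had 1683, 1215 and 1720.0 TPM at 24 h and 2359, 2347 and 2059 TPM at 48 h with TGFβ. Without TGFβ its expression was 291, 222 and 269 TPM and then 166, 152 and 156 TPM, and the difference grew from 2.62 to 3.89, a change of 1.27 (SE 0.18, adjusted p = 3.4e-05). SERPINH1, which encodes a collagen chaperone of the endoplasmic reticulum, had a log2 difference of 0.26 at 24 h and 0.82 at 48 h, a change of 0.56 (SE 0.12, adjusted p = 0.0026). The basement membrane gene COL4A1 narrowed, from 2.28 to 1.88, with TPM values of 97.1, 104 and 103 at 24 h and 89.2, 89.2 and 87.2 at 48 h in TGFβ-treated cells. Of 31 laminin, fibronectin and matricellular genes, 6 were called higher and 2 lower, against 3.5% and 5.61% of all genes. TNC, the gene of tenascin C, rose with TGFβ from 27.9, 25.6 and 27.4 TPM to 56.2, 56 and 50.3 TPM and in untreated cells stayed between 18.9 and 23.2 TPM. The log2 difference of TNC grew by 0.83 (SE 0.093, adjusted p = 1.9e-06). FN1 (fibronectin), FBN1 (fibrillin 1) and LTBP1, a latent TGFβ binding protein, widened by 0.41, 0.33 and 0.30.

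Both CCN genes of that list went against it. CCN2, a matricellular protein and well-known target of TGFβ and YAP, had 74.1, 72.7 and 70.8 TPM at 24 h and 99.1, 96.7 and 104 TPM at 48 h with TGFβ. Untreated cells rose more steeply, from 8.76, 8.59 and 10 TPM to 25.8, 26.2 and 24.8 TPM. The groups stayed apart at 48 h, and the log2 difference narrowed from 3.02 to 1.98, a change of -1.04 (SE 0.074, adjusted p = 5.8e-09). For CCN1, TGFβ-treated cells were above untreated cells at 24 h (38.3, 40.2 and 39.9 against 22.8, 21.6 and 23.8 TPM) and below them at 48 h (63.1, 60.6 and 61.6 against 76, 75.6 and 73.4 TPM). The change of the difference of CCN1 was -1.10 (SE 0.063, adjusted p = 3.2e-10), but its order at 48 h depends on the scaling, since its difference there was 0.09 against the reference genes. ANKRD1, another target of YAP, reversed in the same direction, from 0.37 to -0.46. Of 30 tested genes of the YAP, Notch and Wnt lists, 7 were called lower and 2 higher, against 5.61% and 3.5% of all genes. The 2 became 1 without any library other than TGFβ replicate 1 or 3 or untreated replicate 1 at 24 h.

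Most genes of the EMT and of the TGFβ pathway itself did not pass for a change, although the share called higher was above that of all genes. Of 21 tested EMT transcription factors and mesenchymal genes, 4 were called higher and 1 lower, against 3.5% and 5.61% of all genes. The median change of this list was 0.13, although its median difference was 0.45 at 24 h and 0.25 at 48 h, so that the step between these medians has the opposite sign to the median change. SNAI1, a transcriptional repressor of E-cadherin, had 8.28, 6.89 and 8.41 TPM at 24 h and 9.94, 10.3 and 9.22 TPM at 48 h with TGFβ. Untreated cells fell from 3.62, 3.14 and 3.64 TPM to 1.23, 1.4 and 1.43 TPM, and the difference grew by 1.67 (SE 0.14, adjusted p = 5.9e-08). VIM, the intermediate filament vimentin, behaved alike in that untreated cells fell from 1342, 1310.2 and 1299 TPM to 769.5, 755 and 766 TPM whereas TGFβ-treated cells had 3808, 3654 and 3708 TPM and 3563, 3575 and 3589.8 TPM. Its difference grew from 1.53 to 2.25. For ZEB1 the change was 0.08 (SE 0.13, adjusted p = 0.76) and for SNAI2 it was 0.20 (SE 0.08, adjusted p = 0.098), neither of which passed.

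Of 31 ligands, receptors, SMADs and feedback genes of the TGFβ pathway, 4 were called higher and 3 lower, against 3.5% and 5.61% of all genes. The 4 became 2 in a fit of the 12 libraries alone, and also without TGFβ replicate 3 at 24 h, TGFβ replicate 2 or 3 at 48 h, untreated replicate 3 at 24 h, or untreated replicate 1 or 2 at 48 h. The strongly induced inhibitors PMEPA1, SMAD7 and SKIL had log2 differences of 4.49, 2.37 and 3.21 at 24 h and of 4.53, 2.47 and 3.10 at 48 h, and none of these changes passed (adjusted p = 0.72, 0.46 and 0.68). SMAD3, a mediator of the pathway, had log2 differences of -0.05 at 24 h and -0.37 at 48 h, a change of -0.32 (SE 0.044, adjusted p = 2.6e-05). It did not pass with length-scaled counts (adjusted p = 0.049) or on log2(TPM + 1) (adjusted p = 0.034). ID2, an inhibitor of helix-loop-helix factors that TGFβ represses, had log2 differences of -2.02 at 24 h and -1.18 at 48 h, so that its deficit narrowed by 0.83 (SE 0.13, adjusted p = 9.5e-05).

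Several of the most negative changes belonged to genes that rose in untreated cells and did not follow with TGFβ. MGP, the matrix Gla protein, an inhibitor of calcification, had 75.8, 101 and 96.4 TPM in untreated and 94.3, 92.5 and 90.5 TPM in TGFβ-treated cells at 24 h. At 48 h the untreated libraries had 404, 413 and 384 TPM and the treated ones 89.1, 99.7 and 104 TPM. Thus the groups overlapped at 24 h and were far apart at 48 h, with a change of the difference of -2.08 (SE 0.13, adjusted p = 8.7e-10). MLXIPL, the glucose-responsive transcription factor ChREBP, rose from 3.25, 3.59 and 2.88 TPM to 16, 15 and 15.8 TPM in untreated cells and stayed between 0.965 and 1.59 TPM with TGFβ, a change of -2.13 (SE 0.18, adjusted p = 3.7e-08). DCN and LUM, both small matrix proteoglycans, had changes of -1.83 and -1.11, in contrast to their relative BGN. Both belong to the 8 fibroblast markers, of which 7 rose with TGFβ from 24 h to 48 h, so that DCN, LUM or both rose there as well. FGG, the fibrinogen γ chain, rose in untreated cells by 0.80 and fell with TGFβ by 0.94 on the log2 scale, a change of -1.73 (SE 0.19, adjusted p = 2.2e-06). TIMP3, a matrix-bound protease inhibitor, had 222, 224 and 224 TPM at 48 h without TGFβ and 34.1, 31.8 and 32 TPM with it, after 79.3, 83.1 and 84.2 and 31.3, 24.5 and 25.7 TPM at 24 h. The deficit of TIMP3 widened from -1.57 to -2.75. DKK1, a secreted Wnt inhibitor, and ALDH1A3, an enzyme of retinoic acid synthesis, changed by -1.64 (SE 0.16, adjusted p = 3.7e-07) and by -0.98 (SE 0.046, adjusted p = 1.5e-11).

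**Figure D3:**
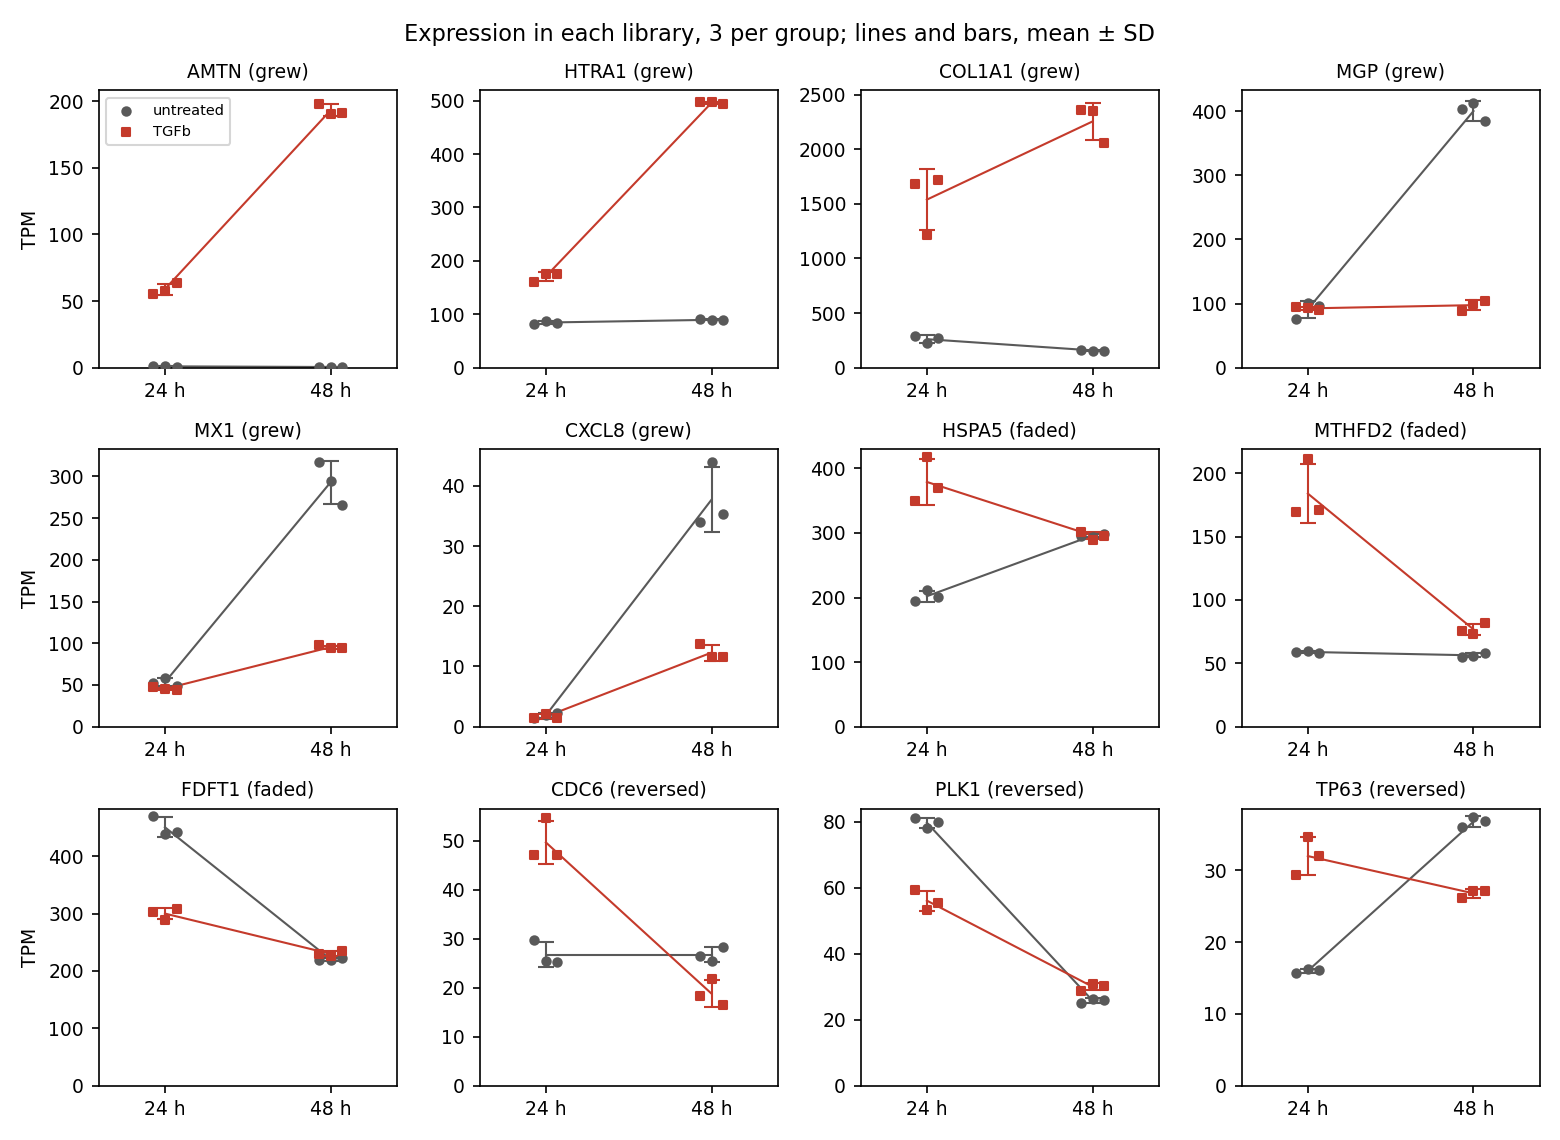
TPM in each library at 24 h and 48 h for 12 genes, untreated cells as grey circles and TGFβ-treated cells as red squares; lines join the group means and bars show the SD of 3 libraries. AMTN, HTRA1 and COL1A1 rose with TGFβ only, MGP, MX1 and CXCL8 rose mainly without it, the arms approached each other for HSPA5, MTHFD2 and FDFT1, and they crossed for CDC6, PLK1 and TP63.

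Interferon-stimulated and antigen presentation genes fell further behind untreated cells with TGFβ. Interferon signals through a transcription factor complex that holds STAT2 and IRF9 and binds a short element in the promoters of antiviral genes. Of 36 tested members, 20 were called lower and 0 higher in the change of the difference (0 higher also by edgeR, by DESeq2 and at an unadjusted p below 0.05), the median change was -0.62, and 13 of the 20 had widened and 7 had appeared. In untreated cells 33 of the 36 rose from 24 h to 48 h and with TGFβ 21 rose, against 14.7% and 12.4% of all genes, with median changes of 1.18 and 0.45 on the log2 scale. MX1, an antiviral GTPase, had 52.5, 58.7 and 48.8 TPM at 24 h and 317, 295 and 266 TPM at 48 h in untreated cells. With TGFβ it had 47.2, 44.7 and 44 TPM and 97.5, 94.7 and 94 TPM, so that the arms nearly met at 24 h and were far apart at 48 h, a change of -1.43 (SE 0.1, adjusted p = 5.8e-09). IFIT3, which binds viral RNA complexes together with IFIT1, had 68.6, 66.2 and 64 TPM against 17.1, 17.3 and 17.8 TPM at 48 h, after 20.9, 24.3 and 20.7 and 13.4, 16.3 and 13.9 TPM at 24 h. The changes of IFIT3 and of OAS3, an enzyme that senses double-stranded RNA, were -1.34 (SE 0.11, adjusted p = 3.4e-08) and -1.37 (SE 0.077, adjusted p = 2.3e-10). RSAD2 and XAF1 changed by -1.51 and -1.49.

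The bases before the start sites of a pair of these genes are shown because the letters of the interferon element are a feature of many members. In RefSeq promoters (250 bases before to 50 after each start, GRCh38.p14), a pair of GAAA with 2 bases between them, read on both strands, was found in 23 of 38 windows of 29 matched members (60.5%) and in 1255 of 35116 windows of all genes (3.57%). Capitals mark the match, and both stretches are written 5′ to 3′ on the plus strand, at chr21:41431829-41431868 for MX1 and chr10:89332410-89332492 for IFIT3.
MX1: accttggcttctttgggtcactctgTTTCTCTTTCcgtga
IFIT3: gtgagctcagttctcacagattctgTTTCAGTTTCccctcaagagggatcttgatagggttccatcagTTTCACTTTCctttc
The match is a description of letters and says nothing on which factor was bound in these cells. Members were listed as known genes of this response, so a high share is a property of the list and no result of the expression data. This holds for the motifs of the other lists below as well.

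NF-kB targets, chemokines and interleukin-1 genes also rose less with TGFβ. Of 26 tested members, 13 were called lower and 0 higher (0 higher by edgeR, 1 by DESeq2 and 1 at an unadjusted p below 0.05), with a median change of -0.60. From 24 h to 48 h 23 rose in untreated cells and 15 with TGFβ, against 14.7% and 12.4% of all genes. CXCL8, a chemokine that attracts neutrophils, rose from 1.41, 1.95 and 2.31 TPM to 34, 43.9 and 35.3 TPM in untreated cells. It rose from 1.51, 2.14 and 1.39 TPM to 13.8, 11.5 and 11.6 TPM with TGFβ, so that the groups overlapped at 24 h only, and the change of the difference was -1.41 (SE 0.23, adjusted p = 0.0002). CXCL8 did not pass (adjusted p = 0.015) when the 12 libraries alone were fitted with replicate numbers as blocks, separately at each time. CXCL1, a chemokine of the same family, rose to 58.4, 73.4 and 63.1 TPM without and 16.5, 12.8 and 12.5 TPM with TGFβ, a change of -1.73 (SE 0.24, adjusted p = 3.6e-05). CXCL2 and CXCL3 resemble CXCL1 in sequence, and reads may have been divided among them. IL6 moved from 4.12, 3.78 and 3.71 TPM to 13.7, 14.3 and 13.3 TPM in untreated cells, while TGFβ-treated cells moved from 4.34, 4.18 and 4.1 TPM to 6.05, 5.53 and 5.45 TPM, a change of -1.53 (SE 0.13, adjusted p = 3.9e-08). PTGS2, the inducible cyclooxygenase, changed by -1.84 (SE 0.16, adjusted p = 1e-07), and SOD2, the mitochondrial superoxide dismutase, by -1.24. The letters GGG and TTTCC with 2 bases between them, to which NF-kB subunits are known to bind, were found on either strand in 13 of 34 windows of 23 matched members (38.2%) and in 671 of all 35116 (1.91%). The stretch of CXCL1 at chr4:73869289-73869328, plus strand, holds 1 match in capitals.
CXCL1: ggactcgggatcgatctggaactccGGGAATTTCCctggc

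The cell cycle lists changed in opposite directions. Of 30 genes of the G1/S transition and DNA replication, 28 were called lower and 0 higher (0 higher also by edgeR, by DESeq2 and at an unadjusted p below 0.05), and all 30 changes were below 0 with a median of -0.78. At 24 h 23 of them were higher with TGFβ (15.4% of all genes) and 1 was lower (13.8%). At 48 h 1 was higher (16.1%) and 20 were lower (16.4%). The median difference went from 0.46 to -0.44, and 15 members met the definition of a reversal. In the TGFβ arm 28 members fell from 24 h to 48 h (13.4% of all genes), with a median of -1.12, while untreated cells had a median of -0.22. CDC6, which loads the replicative helicase, had 29.7, 25.5 and 25.3 TPM at 24 h and 26.4, 25.5 and 28.4 TPM at 48 h in untreated cells. With TGFβ it was 47.2, 54.7 and 47.2 TPM at 24 h, above every untreated library, and 18.3, 21.8 and 16.4 TPM at 48 h, below every one of them. Its change was -1.43 (SE 0.071, adjusted p = 2.8e-11). E2F1, a transcription factor of the G1/S transition, went from 26.2, 22.1 and 23.5 TPM to 11, 11.1 and 11.6 TPM with TGFβ while untreated libraries stayed between 14.4 and 17.6 TPM, a change of -1.18 (SE 0.13, adjusted p = 2.1e-06). CCNE2 (cyclin E2), MCM10, CLSPN and MCM2, a subunit of the helicase, changed by -1.47, -1.15, -1.11 and -1.08. CCND1, the gene of cyclin D1, stayed higher with TGFβ but narrowed from 1.19 to 0.31. DTL, EXO1 and CDCA7, outside the list but with known roles in S phase, reversed in the same way, with changes of -1.21, -1.32 and -1.34.

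Against the 4 reference genes the G1/S medians were 0.81 and -0.09, with 27 members called lower in the change of the difference and 4 rather than 15 reversed. Without replicate 2 of both arms at 24 h, 28 members were called lower and 13 reversed. E2F proteins are known to bind GC-rich letters after a run of T, and any of TTTCCCGC, TTTCGCGC, TTTGCCGC or TTTGGCGC stood on either strand in 17 of 32 windows of 24 matched members (53.1%), against 1164 of 35116 (3.31%). The promoter of E2F1 at chr20:33686393-33686443, minus strand, holds 2 matches.
E2F1: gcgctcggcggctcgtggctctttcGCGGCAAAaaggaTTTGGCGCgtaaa

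Genes of mitosis and the G2/M transition fell from 24 h to 48 h in both arms (31 of 31 members in untreated and 30 in TGFβ-treated cells, against 13.6% and 13.4% of all genes), with medians of -1.61 and -1.12 on the log2 scale. Since the fall was smaller with TGFβ, 15 of 31 members were called higher in the change of the difference and 0 lower (0 lower also by edgeR, by DESeq2 and at an unadjusted p below 0.05), with a median of 0.52. At 24 h 14 members were lower with TGFβ and 0 higher, against 13.8% and 15.4% of all genes. At 48 h 16 were higher and 1 was lower, against 16.1% and 16.4% of all genes. PLK1, a mitotic kinase, had 81.1, 78 and 80 TPM at 24 h and 25.2, 26.4 and 25.9 TPM at 48 h in untreated cells. With TGFβ it had 59.3, 53.3 and 55.5 TPM and 28.8, 30.9 and 30.3 TPM. The arms were separated in opposite order at the later time, and the change was 0.74 (SE 0.092, adjusted p = 7.6e-06). CDC20, an activator of the anaphase-promoting complex, and NEK2, a centrosomal kinase, reversed with changes of 0.84 (SE 0.14, adjusted p = 0.0002) and 1.00 (SE 0.099, adjusted p = 4.2e-07), but NEK2 was higher with TGFβ at both times against the reference genes (0.10 and 1.10). PIMREG and PIF1 are no members but fell alike, from 22, 19 and 17.4 TPM to 4.08, 3.77 and 3.84 TPM in untreated cells and from 13.3, 11.6 and 12.1 TPM to 6.13, 6.58 and 6.14 TPM with TGFβ for PIF1, a DNA helicase. Their changes were 1.07 (SE 0.089, adjusted p = 3.7e-08) and 1.37 (SE 0.14, adjusted p = 6.5e-07). CCNA2 (cyclin A2) had the largest change of the list, 2.36 (SE 0.52, adjusted p = 0.0033), with TGFβ-treated libraries at 6.7, 18.4 and 19.9 TPM at 24 h. The first of these was far below the others, and the adjusted p was 0.0041 without it and 0.014 without TGFβ replicate 3 at 48 h. With the 4 reference genes as library size, 12 members were called higher, the median differences were 0.09 and 0.63 beside 0.335 and 0.336 for all genes, and 1 member rather than 8 was reversed. The letters TTTGAA or TTCGAA of the cell cycle homology region were found on either strand in 19 of 31 windows of 25 matched members (61.3%) and in 5742 of 35116 (16.4%). They stand once in the stretch of CDC20 at chr1:43358891-43358926, plus strand.
CDC20: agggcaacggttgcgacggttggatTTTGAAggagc

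**Figure D4:**
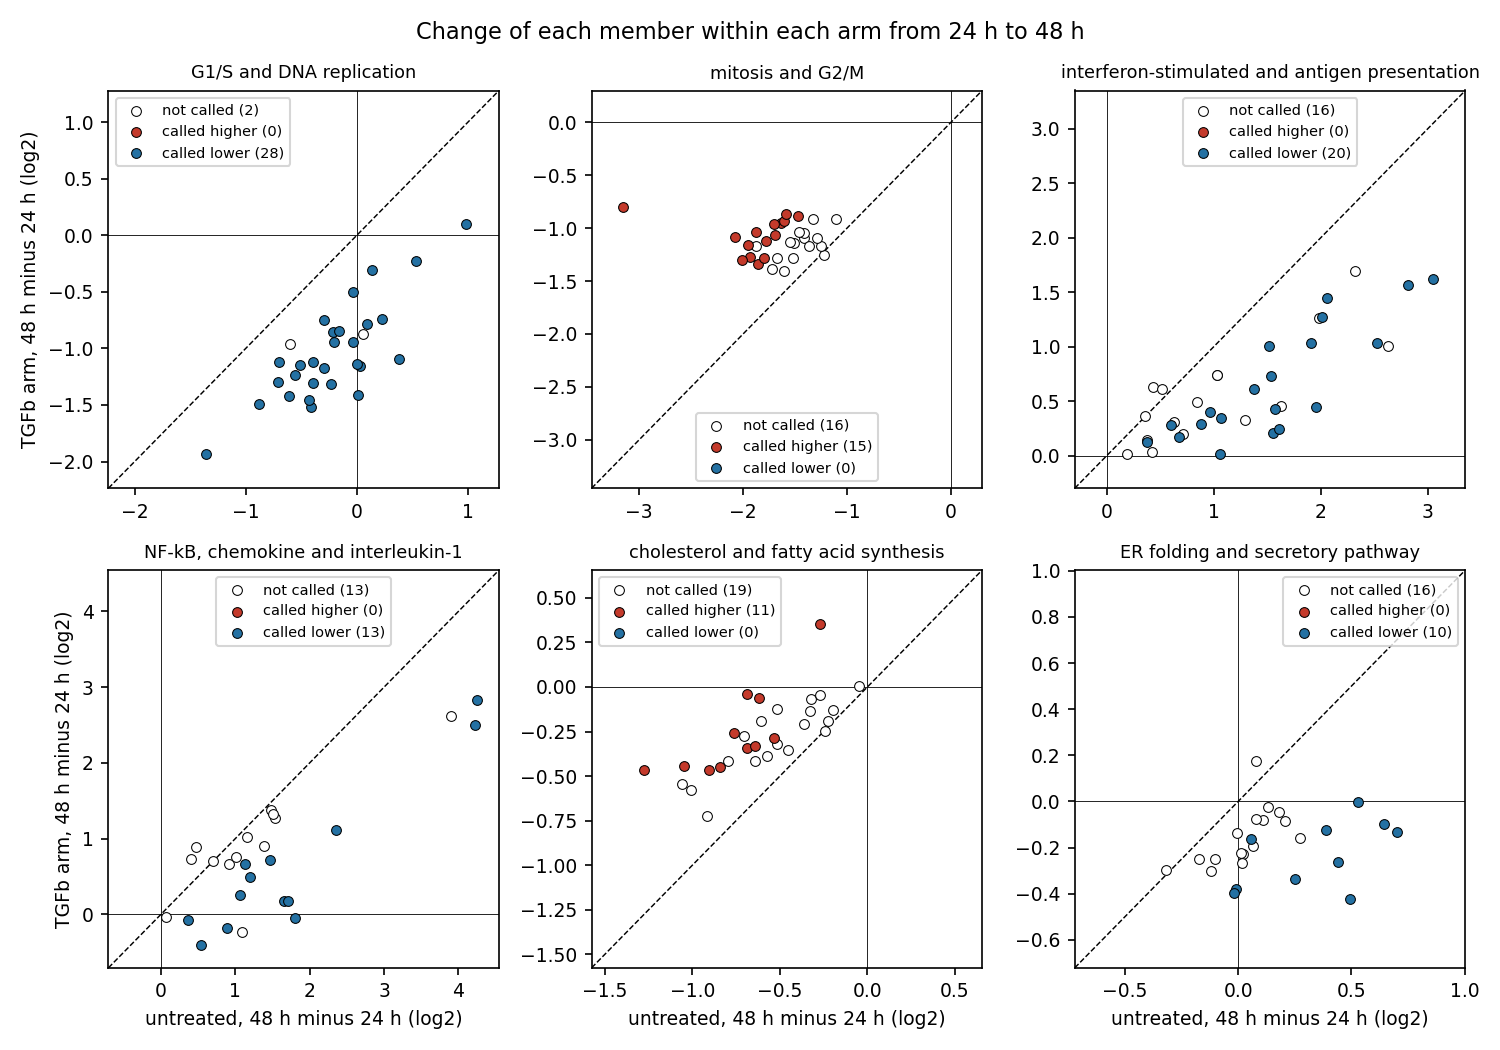
Log2 change from 24 h to 48 h in untreated cells (horizontal axis) and in TGFβ-treated cells (vertical axis) for each tested member of 6 gene lists; the dashed line marks equal change in both arms. G1/S members lie below the line mainly through a fall with TGFβ, mitosis members fell in both arms and mostly lie above it, and interferon and NF-kB members rose more without TGFβ.

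Inhibitors of the cell cycle were mixed. Of 17 tested CDK inhibitors and p53 targets, 4 were called higher and 2 lower, against 3.5% and 5.61% of all genes. CDKN1A, which encodes the CDK inhibitor p21, had 78.3, 71.8 and 80 TPM at 24 h and 48.9, 48.7 and 47.5 TPM at 48 h without TGFβ. With TGFβ it had 115, 109 and 121 TPM and 149, 149 and 137 TPM, a widening of 0.99 (SE 0.088, adjusted p = 9.9e-08). GADD45A, a stress gene, widened in the other direction, with a change of -0.91 (SE 0.08, adjusted p = 8.4e-08). TP53INP1 was lower with TGFβ at 24 h (-0.38) and higher at 48 h (0.41), a change of 0.79 (SE 0.13, adjusted p = 0.00017), but was no longer lower at 24 h against the reference genes (-0.03).

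Cholesterol and fatty acid synthesis genes, which are controlled together by SREBP transcription factors, lost a deficit. At 24 h 21 of 30 tested members were lower with TGFβ and 0 higher, against 13.8% and 15.4% of all genes. At 48 h 4 were lower and 3 higher, against 16.4% and 16.1% of all genes. The change of the difference was called higher for 11 and lower for 0 (0 lower also by edgeR, by DESeq2 and at an unadjusted p below 0.05), with a median of 0.33. From 24 h to 48 h 23 members fell in untreated and 17 in TGFβ-treated cells, against 13.6% and 13.4% of all genes, with medians of -0.61 and -0.28. FDFT1, squalene synthase, had 470.5, 439 and 442 TPM in untreated and 302, 289.5 and 308 TPM in TGFβ-treated cells at 24 h. At 48 h the values were 219, 219 and 223 TPM and 229, 226 and 235 TPM. The groups were well separated at first and nearly met later, a change of 0.61 (SE 0.052, adjusted p = 5.9e-08). INSIG1, a sterol-regulated retention protein, and FADS2, a fatty acid desaturase, reversed with changes of 0.81 (SE 0.077, adjusted p = 2.5e-07) and 0.65 (SE 0.088, adjusted p = 2.3e-05), although FADS2 had no difference at 24 h against the reference genes (0.00). The count fell to 6 without untreated replicate 1 at 24 h or without untreated replicate 2 at 48 h, and was 7 in a fit of the 12 libraries alone. Under the 4 reference genes the medians at 24 and 48 h were 0.03 and 0.36, beside 0.335 and 0.336 for all genes.

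Genes of protein folding in the endoplasmic reticulum and of the ATF4 response, in contrast, were less increased at 48 h than at 24 h. These belong to the unfolded protein and integrated stress responses, in which XBP1 and ATF6 act on chaperone genes and ATF4 on amino acid synthesis and transport. Of 26 folding and secretory genes, 20 were higher with TGFβ at 24 h and 8 at 48 h, against 15.4% and 16.1% of all genes, and 10 were called lower in the change of the difference and 0 higher (0 higher also by edgeR, by DESeq2 and at an unadjusted p below 0.05), with a median change of -0.25. HSPA5, the main chaperone of the endoplasmic reticulum, had 194, 212 and 201 TPM without and 349, 418 and 370.2 TPM with TGFβ at 24 h. At 48 h it had 295, 293 and 299 TPM and 301, 289 and 296 TPM, so that untreated cells rose, treated cells fell and the groups overlapped. Its change was -0.92 (SE 0.072, adjusted p = 2.3e-08). XBP1 and HYOU1, another chaperone gene, followed with changes of -0.84 (SE 0.098, adjusted p = 3.8e-06) and -0.70 (SE 0.062, adjusted p = 9e-08). The count fell to 6 without TGFβ replicate 3 at 24 h or without TGFβ replicate 3 at 48 h. The letters CCAAT and CCACG with 9 bases between them, the stress element of these promoters, read on both strands, were found in 9 of 31 windows of 24 matched members (29.0%) and in 27 of 35116 (0.0769%), and stand in capitals in HSPA5 at chr9:125241386-125241434, minus strand.
HSPA5: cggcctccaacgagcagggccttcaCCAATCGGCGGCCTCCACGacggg

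Of 26 ATF4, serine and amino acid genes, 14 were called lower and 1 higher, with a median change of -0.41. At 24 h 19 were higher with TGFβ and at 48 h 15 were, against 15.4% and 16.1% of all genes. MTHFD2, a mitochondrial enzyme of folate metabolism, had 169.5, 211 and 171 TPM at 24 h and 75.4, 73.5 and 81.5 TPM at 48 h with TGFβ, while untreated libraries stayed between 55.2 and 59.9 TPM. Its difference narrowed from 1.63 to 0.44, a change of -1.19 (SE 0.096, adjusted p = 2.8e-08). TRIB3, PSAT1 (serine synthesis) and ASNS (asparagine synthetase) narrowed, with changes of -0.95, -0.79 and -0.78, and ATF4 itself with a change of -0.49. STC2, a secreted glycoprotein, reversed from 1.38 to -0.43, since untreated cells rose from 27.8, 24.8 and 30.1 TPM to 71.8, 69.1 and 66.5 TPM and TGFβ-treated cells went from 72.2, 54.2 and 65.1 TPM to 50.2, 48.3 and 46.7 TPM. Against the reference genes STC2 did not reverse (1.73 and -0.08). CEBPB, a transcription factor, was the member called higher, with a change of 0.53, which passed in 1 of the 12 fits that left out a library. The letters TGATGNAA, which ATF4 dimers are known to bind, were in 6 of 36 windows of 22 matched members (16.7%) and in 1270 of 35116 (3.62%). In the TGFβ arm 20 of the 26 fell from 24 h to 48 h and in untreated cells 9, against 13.4% and 13.6% of all genes.

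Several induced genes of motility and adhesion faded, but most members of their lists were not called. Of 34 actin, SRF and contractile genes, 6 were called lower and 2 higher, with a median change of -0.06. Of 24 integrins and focal adhesion genes, 4 were called lower and 2 higher, with a median change of 0.01. Among all genes 5.61% were called lower and 3.5% higher. The 2 higher calls of the actin list fell to 1 or 0 without any library other than TGFβ replicate 2 at 24 h, and to 0 by edgeR. The 2 of the integrin list fell to 1 without TGFβ replicate 3 at 24 h, TGFβ replicate 1 at 48 h, untreated replicate 2 at 24 h, or untreated replicate 1 or 3 at 48 h. MYO10, an unconventional myosin of filopodia, had 46.2, 46.4 and 47.7 TPM at 24 h and 48.6, 47.4 and 46.8 TPM at 48 h with TGFβ. Untreated cells went from 17.3, 17.4 and 17 TPM to 21, 21.1 and 22.4 TPM, so that the arms stayed well separated and the difference narrowed, with a change of -0.28 (SE 0.049, adjusted p = 0.00048). Against the reference genes this change of MYO10 did not pass (adjusted p = 0.013). MYO1E, a class I myosin, narrowed from 0.84 to 0.29, a change of -0.54 (SE 0.052, adjusted p = 2.5e-07), and its libraries overlapped at 48 h (40.8, 39.7 and 34.5 against 32.7, 32.4 and 35.6 TPM). ITGA5, the fibronectin receptor subunit, fell with TGFβ from 142, 145 and 139 TPM to 116, 111 and 112 TPM, a change of -0.47 (SE 0.076, adjusted p = 0.00019). ITGA11, a collagen receptor subunit, widened from 2.13 to 2.62, with 347, 362 and 335 TPM at 48 h. For ITGB3 the change was -0.09 (SE 0.081, adjusted p = 0.56) and for MYH9 -0.33 (SE 0.092, adjusted p = 0.017), which did not pass. PLAU, the urokinase plasminogen activator, narrowed from 3.06 to 2.41. JUN, a subunit of the AP-1 factor, had 59.5, 47 and 52.2 TPM with and 26.2, 22.7 and 25.6 TPM without TGFβ at 24 h, and 62.3, 62.1 and 61.3 and 58.4, 54.7 and 51.9 TPM at 48 h. Untreated cells had nearly reached the treated ones, and the difference of JUN was lost with a change of -0.93 (SE 0.14, adjusted p = 7.3e-05). In its list of 29 AP-1, ERK feedback and immediate early genes, 6 were called lower and 3 higher (1 without TGFβ replicate 1 at 48 h). AREG and HBEGF, ligands of the EGF receptor, had log2 differences of -1.99 and -1.01 at 48 h, with changes of -1.02 (SE 0.081, adjusted p = 2.7e-08) and -0.97 (SE 0.12, adjusted p = 5.8e-06).

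The called changes of keratin and squamous genes were toward lower expression with TGFβ. Of 19 tested keratin and squamous genes, 8 were called lower and 0 higher (0 higher also by edgeR, by DESeq2 and at an unadjusted p below 0.05). The count was 5 without TGFβ replicate 3 at 24 h, or without TGFβ replicate 1 or replicate 2 at 48 h, and 5 in a fit of the 12 libraries alone. TP63, the master regulator of squamous epithelium, had 15.7, 16.2 and 16.1 TPM in untreated and 29.4, 34.7 and 32 TPM in treated cells at 24 h. At 48 h untreated cells had 36, 37.5 and 36.9 TPM and treated cells 26.1, 27.2 and 27.2 TPM. The order of the arms was exchanged with no overlap, from 1.02 to -0.49, a change of -1.51 (SE 0.093, adjusted p = 8.7e-10). Against the reference genes the differences of TP63 were 1.37 and -0.14, which is no longer a reversal. KRT17, a keratin of basal and wounded epithelium, rose in both arms, from 0.497, 0.513 and 0.29 TPM to 5.65, 5.87 and 4.71 TPM without and from 18, 17.1 and 19 TPM to 69.3, 71.4 and 70.7 TPM with TGFβ. On the log2 scale its difference narrowed from 5.46 to 3.76, a change of -1.70 (SE 0.28, adjusted p = 0.00022), but in TPM the gap widened, and on log2(TPM + 1) the change did not pass (-0.25, adjusted p = 0.39). KRT7 narrowed from 2.66 to 1.97, with 1572, 1349 and 1542 TPM at 24 h and 878, 857 and 889.8 TPM at 48 h in TGFβ-treated cells. Of 30 epithelial junction genes, 3 were called lower and 1 higher, against 5.61% and 3.5% of all genes. The 1 became 2 without TGFβ replicate 2 at 24 h, and 0 in a fit of the 12 libraries alone. CLDN1, a tight junction protein, rose in untreated cells from 12.6, 14.5 and 12.9 TPM to 42.7, 49.6 and 44.3 TPM and with TGFβ from 7.33, 7.42 and 6.74 TPM to 14.3, 12.9 and 12.5 TPM, a change of -0.93 (SE 0.12, adjusted p = 8.6e-06).

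The remaining named reversals follow. SLC2A12, a glucose transporter, had 57.5, 63.1 and 54.4 TPM and 30, 34.3 and 31.7 TPM at 24 h in untreated and treated cells. At 48 h untreated cells had fallen to 23.1, 21.2 and 23.8 TPM while treated cells stayed at 30.7, 31.4 and 34.3 TPM, a change of 1.35 (SE 0.11, adjusted p = 2.5e-08). NOTCH3 went from 10.3, 7.15 and 9.42 TPM to 6.08, 5.08 and 5.02 TPM without TGFβ and from 6.76, 6.01 and 5.36 TPM to 9.76, 9.55 and 8.6 TPM with it, a change of 1.68 (SE 0.21, adjusted p = 8.7e-06). The metallothioneins MT1E and MT1F, which bind zinc and copper, both changed from lower to higher, by 0.92 (SE 0.11, adjusted p = 8.2e-06) and 0.90 (SE 0.14, adjusted p = 8.7e-05). Metallothionein genes resemble each other closely, so their reads may not be fully separable. TNFRSF9, a co-stimulatory receptor, went from higher to lower with 11.4, 14.5 and 12.9 against 6.6, 8.04 and 7.45 TPM at 24 h and 7.19, 7.25 and 6.62 against 14.2, 16.3 and 15 TPM at 48 h, a change of -1.97 (SE 0.17, adjusted p = 9.2e-08). CEMIP, a hyaluronan-degrading factor, rose in untreated cells from 24.1, 21.5 and 24.3 TPM to 104, 103 and 99.8 TPM and passed the TGFβ-treated cells, which went from 71.5, 65.8 and 67.1 TPM to 89.5, 83 and 83.2 TPM. The change of CEMIP was -1.91 (SE 0.082, adjusted p = 4e-12), but against the reference genes it did not cross (0.07 at 48 h). PLPPR3 and MDFI, an inhibitor of myogenic factors, were among the 10 most positive changes of coding genes with a group mean of at least 10 TPM. Their changes were 1.53 (SE 0.24, adjusted p = 0.00012) and 1.39 (SE 0.29, adjusted p = 0.0019). For MDFI the adjusted p was 0.015 in a fit of the 12 libraries alone.

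In the remaining lists most members were not called, and among all genes 3.5% were called higher and 5.61% lower. Of 36 cytosolic ribosomal protein genes 0 were called in limma voom and by edgeR, 1 by DESeq2 and 2 at an unadjusted p below 0.05. From 24 h to 48 h, however, 20 fell in untreated and 13 in TGFβ-treated cells, against 13.6% and 13.4% of all genes. Of 28 mitochondrially encoded and complex I genes 3 were called lower, among them MT-ND5 and MT-ND6 with -0.50 and -0.66. Transcripts of the mitochondrial genome made up 10.5% to 11.2% of TPM in untreated cells at 24 h and 12.6% to 13.3% at 48 h, and 11.8% to 12.5% and 13.3% to 14.3% with TGFβ, and the part of this share in other results was not tested. Of 29 glycolysis and hypoxia genes 4 were called lower, with HK2 (hexokinase 2) at -0.70. The 4 became 2 in a fit of the 12 libraries alone, and also without TGFβ replicate 3 at 24 or 48 h, untreated replicate 2 at 24 or 48 h, or untreated replicate 3 at 48 h. Of 28 lysosome and autophagy genes 2 were called higher, NPC2 (a cholesterol carrier) at 0.38 and GLB1 (a galactosidase) at 0.29. GLB1 did not pass in a fit of the 12 libraries alone (adjusted p = 0.015), with length-scaled counts (0.08) or on log2(TPM + 1) (0.12). Of 32 antioxidant and detoxification genes 5 were called higher and 3 lower, both above the shares of all genes. The 5 became 2 in a fit of the 12 libraries alone, and 3 without any single TGFβ library at 48 h, untreated replicate 1 at 24 h, or untreated replicate 1 or 2 at 48 h.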

How the data were processed

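Total RNA of 24 SK-MES1 cultures was sequenced, 3 for each of 8 combinations of treatment and time. The authors quantified reads against Ensembl release 79 transcripts (GRCh38) with kallisto 0.43.0 and deposited estimated counts and TPM per transcript, beside transcript and effective lengths. Per the labels the triplicates are biological replicates, and p-values measure the spread between them.

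Here transcripts were summed to genes with a GENCODE 44 annotation, which matched 155518 of 173259 transcripts (89.8%) and between 94.82% and 95.05% of the estimated counts in the libraries of 24 and 48 h, and the other transcripts were left out. The summed counts were rounded. Genes with at least 10 counts in at least 3 libraries entered limma voom (limma 3.58.1, edgeR 4.0.16 for TMM factors, R 4.3.3), fitted to all 24 libraries with a mean per group and read as contrasts, with a threshold of 0.01 on the Benjamini-Hochberg adjusted p. The other 12 libraries entered none of these contrasts, but contributed to the count filter, the TMM factors and the estimate of the spread. TPM values are printed per library in the order of replicates 1, 2 and 3, while log2 values come from the fit, so that changes in transcript length can set them apart. The script was tested on simulated data. edgeR's quasi-likelihood test, DESeq2 1.42.0, other library scalings, filters, log2(TPM + 1) and log2(TPM + 0.1), a replicate block and the omission of each library were tried as alternatives.

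Members and lists were chosen with earlier results of these data known. Named were, among coding genes that were called and reached a group mean of 10 TPM, the 10 largest in each direction and 6 reversals in each direction (ordered by the smaller of the differences at 24 h and 48 h). Also named, with no limit on TPM, were up to 5 called members of each list and the genes the study names, called or not. Other list members are given by their values. A few genes, among them some that this rule chose, are not reported here. No library was assigned by its values. Promoters came from RefSeq (GRCh38.p14). Tables were made with Python 3.11.15, pandas 2.3.3 and numpy 2.4.6, figures with matplotlib 3.10.9.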

Additional observations from a re-analysis of the deposited data

Results flagged for a closer look

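A total of 137 genes had a difference between TGFβ-treated and untreated cells that passed the threshold at both times with opposite signs, together with a called change of the difference in limma voom, and 59 genes did so when libraries were scaled to 4 reference genes. Coding genes with a group mean of at least 10 TPM were ordered by the smaller of their differences at 24 h and 48 h, and the first 6 in each direction are given with their change. From lower to higher with TGFβ they were PIF1 (1.37), SLC2A12 (1.35), PIMREG (1.07), MT1E (0.92), MT1F (0.9) and TP53INP1 (0.79). From higher to lower they were TNFRSF9 (-1.97), CDC6 (-1.43), CDCA7 (-1.34), EXO1 (-1.32), DTL (-1.21) and E2F1 (-1.18). Outside the gene-level tables, 69 of 5255 tested transcripts without a gene in the annotation used had a called change of the difference, 21 higher and 48 lower.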

How the results depend on the processing

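The change of the difference was called for 1590 genes as reported (611 higher, 979 lower), of which 913 grew, 500 faded and 137 reversed. In this order of counts (all, higher, lower, grew, faded, reversed), sample quality weights gave 4240, 1938, 2302, 2293, 1403 and 438. An adjusted p below 0.05 gave 2706, 1142, 1564, 1522, 853 and 289, and a change of at least 2-fold gave 245, 88, 157, 171, 41 and 31. Length-scaled counts gave 1049 in all, 640 lower, 600 grown and 328 faded. On log2(TPM + 0.1) there were 1000 in all, 590 lower, 590 grown and 289 faded, and on log2(TPM + 1) 326 faded. With 4 reference genes 59 reversed. Leaving out each library gave 1147 to 1497 calls (441 to 607 higher, 703 to 890 lower), 648 to 891 grown, 365 to 470 faded and 104 to 133 reversed. edgeR called 1598 and DESeq2 2060. Replicate numbers did not pair the libraries throughout: deviations of same-numbered libraries of the arms correlated by 0.62, 0.82 and 0.56 at 24 h and by 0.15, -0.04 and 0.27 at 48 h, and the numbers are not said to mark a shared batch. The replicate block gave 1946 calls. With the replicate block set within time points, a fit added after the data had been seen, there were 3238, 1410, 1828, 1762, 1080 and 339, and the same block in the 12 libraries alone 3148, 1251, 1897, 1662, 1075 and 368. Without replicate 2 of both arms at 24 h, also added then, 1376 genes were called (558 higher, 818 lower), of which 838 grew, 386 faded and 109 reversed. Of 130 named called genes, 106 passed in all 12 fits that left out a library, 47 passed in every setting, and none of the 130 changed sign in any of the 31 settings. The causes of these shifts were not tested. With 3 libraries per group the median SE of a change was 0.135 on the log2 scale, which limits the size of change that could pass in most genes.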
